A study of Mus musculus with 2 samples.

Results

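The genes described here are a chosen part of the JAK-STAT signalling pathway: 3 cytokines, 14 cytokine receptor chains, 4 Janus kinases, 6 STAT transcription factors, 8 SOCS family inhibitors, and 6 PIAS proteins and tyrosine phosphatases. The 41 genes were chosen by name from the 55536 annotated genes of the tables, with earlier results of these data known. Levels came from RNA-seq of polyadenylated RNA in 2 libraries of bone marrow-derived macrophages from C57BL/6J mice. Both libraries, replicates 1 and 2, were from cells exposed for 30 min to a ligand at 100 ng/ml. The labels disagree on that ligand, naming lipid A in one field and lipoprotein A in others. No untreated library was among the samples, so no level below can be called induced or repressed by the ligand. The replicates have separate biosample records under 1 donor record, and sex and age are recorded as not collected. Replicate 1 held 37784941 expected counts over genes and replicate 2 held 51904470. All 10 macrophage markers, among them the CSF1 receptor and CD68, reached 10 TPM in each library. TPM is a relative abundance scaled by transcript length, so that genes can be compared with each other.

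In this pathway a cytokine brings together receptor chains on the cell surface, and Janus kinases bound to the chains' inner tails phosphorylate each other, the receptor and STAT proteins. Phosphorylated STATs pair, enter the nucleus and bind DNA, where they activate genes that include those of the SOCS proteins, which bind kinases and receptors and end the signal. In macrophages the pathway carries the response to interferons, to the restraining cytokine interleukin 10 and to the cytokines that drive alternative activation. SOCS3 acts on receptors that contain the gp130 chain and spares the interleukin 10 receptor.

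Transcripts of most of the 41 genes were present. Of the 41 genes, 37 reached 1 TPM in each library, 28 reached 10 TPM and 8 reached 100 TPM. The median level over the 41 genes was 26.8 TPM in replicate 1 and 30.9 TPM in replicate 2. Only Socs1 and Socs2 were below 1 TPM in both libraries, while Ifnb1 and Stat4 were below it in replicate 1 alone. The most abundant was Il10rb, which ranked first of the 41 in each library. Of the 39 genes with a mean of 1 TPM or more, 4 differed more than 2-fold between the libraries, namely Ifnb1, Il10, Socs3 and Cish. All of these were higher in replicate 2, and Ifnb1 reached a mean of 1 TPM only through replicate 2. Over all genes with such a mean, 8.16% differed more than 2-fold in either direction, and 5.99% did so with the higher level in replicate 2.

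**Figure D1:**
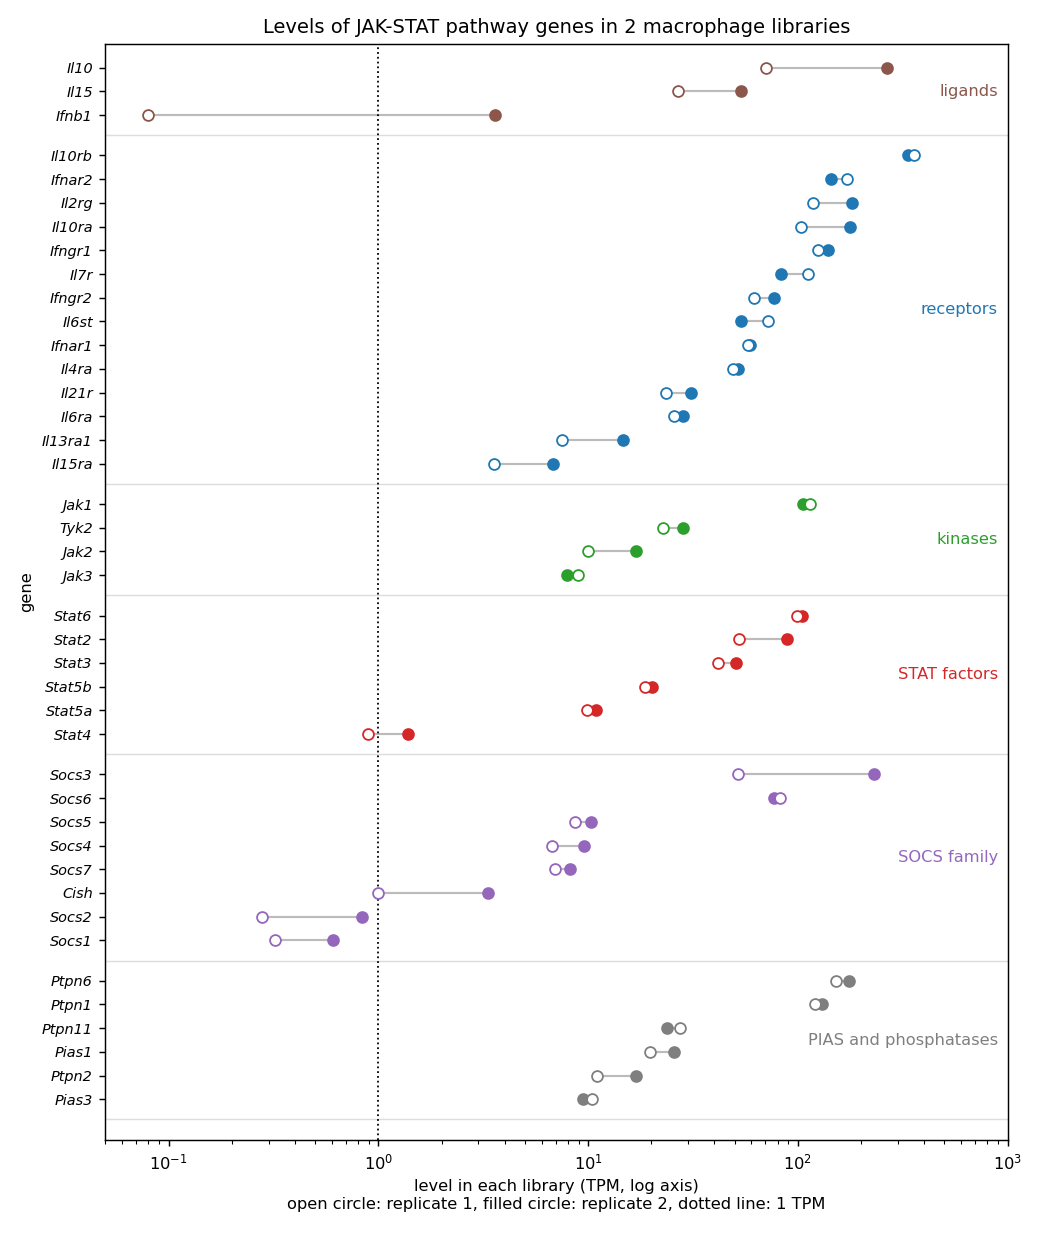
Level of each of the 41 genes in TPM on a log axis, with an open circle for replicate 1, a filled circle for replicate 2 and a dotted line at 1 TPM, ordered within each role by mean level. Most pairs of circles nearly touch, and the pairs of Ifnb1, Il10, Socs3 and Cish lie widest apart among genes with a mean of 1 TPM or more.

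An exact binomial test on counts, with TMM scaling and Benjamini-Hochberg adjustment over 12266 genes at 0.05, asked whether a gene differed between the libraries by more than counting noise. It called 26 of the 40 pathway genes tested higher in replicate 2 and 10 lower, against 32.2% higher and 31.3% lower over all genes tested. Ifnb1 had too few counts for this test, and the 4 genes with no call were Ifngr1, Il4ra, Stat5b and Pias3. With scaling by total counts the lower calls numbered 5 in place of 10, as those of Jak1 and Jak3 were lost and Ifnar1, Stat6 and Ptpn1 turned in direction. These calls compare 2 libraries of the same treatment and not conditions. At this depth they reach small differences: over all genes the common biological coefficient of variation between the libraries was 0.250. The median log2 ratio of TPM, replicate 2 over replicate 1, was 0.25 over the 39 genes and 0.10 over all genes with a mean of 1 TPM or more. Within 1.5-fold of each other were the TPM values of 26 of the 39 genes, or 66.7%, against 77.8% of all genes. Neutrophil markers also differed between the libraries, with 4 of the 10 at 1 TPM or more in both and a summed level of 357 TPM in replicate 1 and 59.1 TPM in replicate 2. Their part in the differences below was not tested, and in bulk RNA fewer cells of a type and less RNA per cell cannot be told apart.

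**Figure D2:**
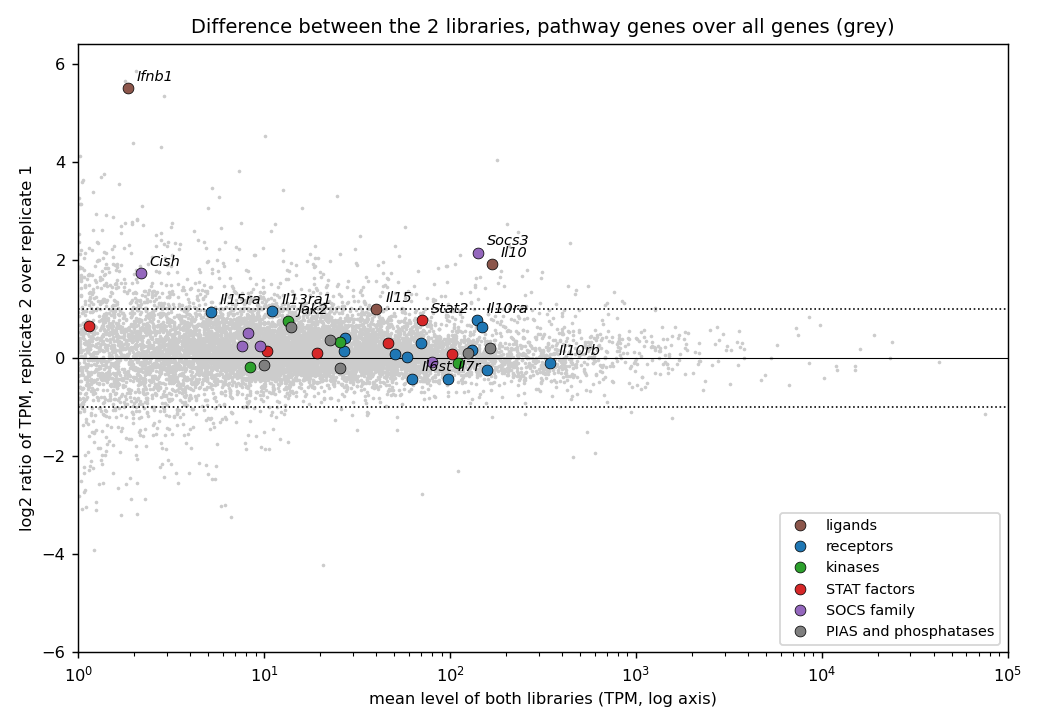
Log2 ratio of TPM in replicate 2 over replicate 1 against the mean TPM of both libraries on a log axis, for genes above 0 in both libraries with a mean of 1 TPM or more, all genes in grey and the pathway genes coloured by role, with dotted lines at 2-fold. Only Ifnb1, Il10, Socs3 and Cish lie beyond the dotted lines among the pathway genes, all on the side of replicate 2, and Il15, Il13ra1 and Il15ra lie just inside.

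Of the roles, the 3 cytokine genes had the largest median log2 ratio of TPM, 1.91. They are few and chosen by name, and Ifnb1 passed the filter on mean TPM only through replicate 2. No conclusion about the role is therefore drawn from this median. Il10 encodes interleukin 10, which signals through JAK1, TYK2 and STAT3 to restrain inflammatory gene expression. Its level was 70.3 TPM in replicate 1 and 264.9 TPM in replicate 2, or 167.6 ± 138 TPM (SD, n = 2). The level in replicate 2 was thus far above that in replicate 1. On TMM-scaled counts the ratio was 3.50, with a 95% exact interval of 3.33 to 3.69 that covers counting error only. Of all genes with a mean of 1 TPM or more, 2.05% were at least as far apart as Il10. Among the 41 genes Il10 ranked 13 in replicate 1 and 2 in replicate 2. It lies at chr1:131019845-131024974 on the plus strand (mm10).

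Ifnb1 encodes interferon beta, the type I interferon that macrophages secrete after TLR4 engages its TRIF arm. It was at 0.08 TPM in replicate 1, from 1 count, and at 3.61 TPM in replicate 2, from 59 counts. Ifnb1 therefore did not count as detected, since its level passed 1 TPM in replicate 2 alone. The ratio on TMM-scaled counts was 39.6, with an exact interval of 6.84 to 1590 that shows how little a single count fixes it. When the filter on low counts was left off, the exact binomial test gave an adjusted p of 1.82e-11 for Ifnb1 after Benjamini-Hochberg adjustment. This value reflects counting noise only and not the further variation between the libraries. Il15 encodes interleukin 15, a cytokine that macrophages present to lymphocytes on the IL-15 receptor alpha chain. Its 26.8 and 53.4 TPM put it just inside the 2-fold limit, at 1.99-fold. A second quantification gave 19.7 and 52.0 TPM, which is past that limit. No transcript of Il15 took most of its TPM: the leading transcript Il15-202 took 43.0% of the gene's TPM in replicate 1 and 40.5% in replicate 2. The short non-coding transcript Il15-207 took 23.6% of the gene's TPM in replicate 1 and 0% in replicate 2, but 13.9% and 6.29% in the second quantification of the same reads.

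The 250 bases before the RefSeq start of each available promoter were searched on both strands for 3 elements. These were the STAT element GAS, written TTCNNNGAA, the interferon-stimulated element ISRE, written GAAANNGAAA, and the 10-base kappa B element of NF-kB. RefSeq promoters (GRCm38.p6) were at hand for 32 of the 41 genes. GAS was found in 3 of the 32 (Socs3, Il7r and Ifnar2), ISRE in 3 (Stat2, Stat4 and Socs1) and kappa B in 4 (Ifnb1, Pias1, Stat5a and Ifngr2). Over all 32851 promoter windows the shares were 7.02% for GAS, 2.98% for ISRE and 7.25% for kappa B. These shares are per window, while a gene counted if any of its windows matched, and the 32 genes had 37 windows. The counts and the shares are therefore not in the same unit. A match of letters is a description and not a bound site. The windows of the genes more than 2-fold apart follow where a match was found, with the matching bases in capitals and the sequence read 5′ to 3′ on the gene's strand. In Ifnb1 (chr4:88522795-88523044, minus strand) the kappa B match ended 107 bases before the start, and in Socs3 (chr11:117969367-117969616, minus strand) the GAS match ended 146 bases before it.
Ifnb1: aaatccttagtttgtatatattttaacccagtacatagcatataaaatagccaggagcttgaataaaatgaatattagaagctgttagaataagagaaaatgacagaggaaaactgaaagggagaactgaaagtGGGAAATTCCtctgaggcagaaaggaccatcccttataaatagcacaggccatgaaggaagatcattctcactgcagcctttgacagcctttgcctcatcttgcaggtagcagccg
Socs3: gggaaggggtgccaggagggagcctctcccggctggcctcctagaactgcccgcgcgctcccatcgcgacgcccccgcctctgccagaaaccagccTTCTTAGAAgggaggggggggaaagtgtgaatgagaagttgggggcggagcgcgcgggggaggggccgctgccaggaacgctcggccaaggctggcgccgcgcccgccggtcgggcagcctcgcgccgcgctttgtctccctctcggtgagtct
The window of Cish (chr9:107296409-107296658, plus strand) held none of the 3 elements, and the promoter of Il10 was not analysed here.

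All 14 receptor chains reached 1 TPM in each library, 12 of them 10 TPM and 5 of them 100 TPM. None differed more than 2-fold, against 8.16% of all genes with a mean of 1 TPM or more. The binomial test called 7 higher in replicate 2 (Ifngr2, Il10ra, Il13ra1, Il2rg, Il15ra, Il21r and Il6ra), 5 lower (Ifnar1, Ifnar2, Il10rb, Il7r and Il6st) and made no call for Ifngr1 and Il4ra. Over all genes tested the shares were 32.2% higher and 31.3% lower. The genes of 4 chains of the interferon and interleukin 10 receptors, Ifnar2, Il10rb, Ifnar1 and Ifngr2, lie in this order between positions 91372783 and 91565623 of chromosome 16. The TPM of each of them differed by less than 1.5-fold between the libraries.

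The type I interferon receptor consists of IFNAR1, which carries TYK2, and IFNAR2, which carries JAK1 and binds interferon tightly. Ifnar2 was at 171.1 and 143.9 TPM in replicates 1 and 2, or 157.5 ± 19.2 TPM (SD, n = 2). Ifnar1 was at 58.2 and 59.1 TPM. Ifnar2 exceeded Ifnar1 2.94-fold in replicate 1 and 2.44-fold in replicate 2. The interferon gamma receptor showed a smaller imbalance. Ifngr1, its ligand-binding chain, was at 124.7 and 139.2 TPM and Ifngr2, the chain that brings JAK2, at 62.1 and 76.7 TPM, a ratio of 2.01 and 1.81. The interleukin 10 receptor pairs a specific chain, IL10RA, with IL10RB, which it shares with receptors for interleukin 22 and type III interferons. Il10rb was at 356.8 and 333.4 TPM, or 345.1 ± 16.5 TPM (SD, n = 2). Il10ra was at 104.0 and 176.7 TPM. The excess of the shared chain over the specific chain was therefore 3.43-fold in replicate 1 and 1.89-fold in replicate 2, as the specific chain was 1.70-fold higher in the library with more Il10.

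Most of the Ifnar2 TPM was assigned to a transcript that lacks the cytoplasmic tail of the full-length receptor. Ifnar2-203, with 248 codons, was at 115.4 and 88.5 TPM in replicates 1 and 2, or 67.5% and 61.5% of the gene's TPM. Ifnar2-201, with 513 codons, was at 46.8 and 44.4 TPM, or 27.4% and 30.9%. The second quantification of the same reads gave Ifnar2-203 69.1% and 64.1% and Ifnar2-201 26.7% and 29.7%. The order of these transcripts by TPM was thus the same in both libraries by both quantifications. TPM is scaled by length, 1099 bases for Ifnar2-203 and 3047 bases for Ifnar2-201, so these are not shares of reads. The level of Ifnar2-201 alone was below the gene level of Ifnar1 in each library. Both transcripts encode the same first 237 amino acids, after which Ifnar2-203 adds 11 residues and Ifnar2-201 adds 276. Exon 7 of Ifnar2-201 ends at position 91393913 of chromosome 16 (mm10, plus strand) and is joined to exon 8, which starts at 91399218. In Ifnar2-203 exon 7 is the last exon and runs on to 91394040. Mouse cells are known to make a soluble IFNAR2 beside the transmembrane receptor, and the coding bases around this point are shown because they set the transcripts apart. Bases common to both are in lower case and the bases from the first difference on are in capitals, up to the last codon before the stop in Ifnar2-203 (chr16:91393885-91393948) and for 45 bases in Ifnar2-201.
Ifnar2-201: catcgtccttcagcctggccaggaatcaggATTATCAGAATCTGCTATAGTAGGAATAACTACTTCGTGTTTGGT
Ifnar2-203: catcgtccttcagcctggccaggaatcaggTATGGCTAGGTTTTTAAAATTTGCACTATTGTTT

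The common gamma chain, encoded by Il2rg, serves the receptors for interleukins 2, 4, 7, 9, 15 and 21 and carries JAK3. Il2rg was at 117.8 and 181.0 TPM. Among its partners Il7r, the interleukin 7 receptor alpha chain, was at 112.2 and 83.6 TPM and was called lower in replicate 2. Il2rg and Il7r were therefore nearly level in replicate 1, at a ratio of 1.05, and 2.17-fold apart in replicate 2. Il4ra, the chain that binds interleukin 4, was at 48.9 and 51.8 TPM. Il21r was at 23.5 and 30.9 TPM. Il15ra, which presents interleukin 15, was the lowest receptor chain at 3.54 and 6.80 TPM, from 113 and 300 counts. The beta chain of the interleukin 2 and 15 receptor, Il2rb, was at 0.10 and 0 TPM. Several of these chains are well known from lymphocytes, and lymphocyte markers were near 0. None of the 10 T cell markers reached 1 TPM in both libraries, with a summed level of 0.93 and 1.53 TPM and Cd8a and Cd8b1 at 0 counts. All 8 NK cell markers were below 1 TPM in both libraries, and Ncr1, Prf1, Gzma and Klre1 had 0 counts. Of 8 B cell markers only Cd79b, at 3.88 and 1.43 TPM, reached 1 TPM in both, and Blk had 0 counts.

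Interleukin 4 and interleukin 13 share a receptor made of IL4RA and IL13RA1, which drives alternative activation of macrophages. Il13ra1 was at 7.50 and 14.6 TPM, 1.95-fold apart, and Il4ra exceeded it 6.52-fold and 3.55-fold. In the interleukin 6 receptor, gp130, encoded by Il6st, is the signalling chain that all cytokines of that family share. Il6st was at 71.8 and 53.6 TPM and was called lower in replicate 2. Il6ra, the chain specific for interleukin 6, was at 25.6 and 28.3 TPM. By mean level the receptor chains ran from Il10rb through Ifnar2, Il2rg, Il10ra, Ifngr1, Il7r, Ifngr2, Il6st, Ifnar1, Il4ra, Il21r, Il6ra and Il13ra1 to Il15ra. The ranges of the 2 libraries overlapped between neighbours from Ifnar2 to Ifngr1, from Ifngr2 to Ifnar1, and between Il21r and Il6ra, so those orders do not stand apart from the spread. Reads of Il2rg could also be assigned to Gm20489, a gene model on the same strand that shares 30.5% of the exonic bases of Il2rg and was at 0 TPM in both libraries.

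The 4 Janus kinases stood apart from each other in level. Jak1, the kinase of interferon, interleukin 10 and gp130 receptors, was at 114.1 and 105.4 TPM. Tyk2, which sits on IFNAR1 and IL10RB, was at 22.6 and 28.4 TPM. Jak2, the kinase of the interferon gamma and GM-CSF receptors, was at 10.04 and 16.9 TPM. Jak3, the partner of the common gamma chain, was at 8.95 and 7.90 TPM. The order Jak1, Tyk2, Jak2, Jak3 was the same in both libraries, and no neighbouring ranges overlapped. Jak2 showed the widest gap between libraries, 1.68-fold. The test called Jak2 and Tyk2 higher in replicate 2 and Jak1 and Jak3 lower, and both lower calls were lost with total-count scaling. With TMM scaling 32.2% of all genes tested were called higher and 31.3% lower.

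The STAT genes ran from Stat6 down to Stat4, and their order was the same in both libraries. Stat6, the factor of interleukin 4 and interleukin 13, was at 99.6 and 104.6 TPM. Its TMM-scaled counts were called lower in replicate 2, a direction that turned with total-count scaling. Stat2, which joins IRF9 in the interferon-stimulated complex, was at 52.3 and 89.1 TPM. Stat3, the factor of interleukin 10 and interleukin 6, was at 41.6 and 50.9 TPM. Stat2 was the STAT with the widest gap among those at 10 TPM or more, 1.70-fold, which 14.1% of all genes equalled or exceeded. Stat5b and Stat5a, near-identical factors of the GM-CSF response, were at 18.6 and 20.1 TPM and at 9.92 and 10.9 TPM. Stat5b exceeded Stat5a 1.88-fold and 1.84-fold, and the second quantification gave 1.91 and 1.72. Fractional expected counts show that some of their reads were shared, so the ratio carries that uncertainty. Stat4, the factor of interleukin 12 in lymphocytes, was lowest at 0.89 and 1.39 TPM. The binomial test called Stat2, Stat3, Stat4 and Stat5a higher in replicate 2 and Stat6 lower, and made no call for Stat5b. Among all genes tested 32.2% were called higher and 31.3% lower. Stat5b, Stat5a and Stat3 lie between positions 100780731 and 100939540 of chromosome 11, where the ends of Stat3 and Stat5a overlap on opposite strands by 72 exonic bases. The sources used here do not say whether counting used strand.

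The test called all 8 SOCS family genes higher in replicate 2, against 32.2% of all genes, although the TPM of Socs6 was not higher. In the second quantification the calls of Socs1 (adjusted p = 0.0633, exact binomial test with Benjamini-Hochberg adjustment) and Socs5 (0.0594) were lost, and that of Socs1 also without the low-count filter (0.0561). Socs3, the inhibitor of gp130 signalling, had the widest gap among pathway genes at 10 TPM or more. It was at 51.9 TPM in replicate 1 and 229.9 TPM in replicate 2, from 2965 and 18455 counts, or 140.9 ± 126 TPM (SD, n = 2). The ratio on TMM-scaled counts was 4.18, with an exact interval of 4.02 to 4.34, and 1.63% of all genes were at least as far apart in TPM. Socs3 ranked 17 of the 41 genes in replicate 1 and 3 in replicate 2. Cish, an inhibitor of STAT5 signalling, was at 1.00 and 3.32 TPM, from 66 and 342 counts. Its ratio on TMM-scaled counts was 3.48, with an exact interval of 2.67 to 4.60. Cish thus met the detection limit in replicate 1 only just, and the second quantification put it at 0.796 TPM there. Its leading transcript Cish-201 was at 0.71 and 1.37 TPM, or 71.0% and 41.3% of the gene's TPM. In the second quantification that share was 87.3% and 66.3%. The gap of the gene was therefore not that of this transcript alone.

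The lowest mean levels of the pathway were those of Socs1 and Socs2. Socs1, the inhibitor of interferon gamma signalling, was at 0.32 and 0.61 TPM, from 20 and 54 counts. Socs2, the inhibitor of growth hormone signalling, was at 0.28 and 0.84 TPM, from 14 and 55 counts. Both were above the 3 counts that a count of 0 would allow, so low transcript levels were measurable. The TPM of each of the other 4 lay within 1.5-fold between the libraries. Socs4, Socs5 and Socs7, which have long N-terminal regions and less defined targets, were at 6.70 and 9.57, 8.68 and 10.3, and 6.93 and 8.22 TPM. Socs6 was at 82.2 and 77.4 TPM, the most abundant SOCS gene in replicate 1 and second to Socs3 in replicate 2. Its TMM-scaled counts were 1.22-fold higher in replicate 2 while its TPM was 0.942-fold. The long transcript Socs6-201, of 6036 bases, went from 19.2 TPM in replicate 1 to 34.7 TPM in replicate 2, and the 453-base Socs6-208 from 18.1% to 0% of the gene's TPM. In the second quantification Socs6-208 took 21.3% and 7.25%, and the TPM of Socs6 was 74.1 and 81.0, higher in replicate 2 as the counts were. The opposite directions of TPM and counts were thus seen in the first quantification alone.

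Among the PIAS proteins and phosphatases, regulators of STATs and kinases, 5 of 6 genes were within 1.5-fold between the libraries. That is 83.3%, near the 77.8% of all genes with a mean of 1 TPM or more. Ptpn6, which encodes the phosphatase SHP-1 of blood cells, was at 152.3 and 175.8 TPM. Ptpn1, which encodes PTP1B, a phosphatase of JAK2 and TYK2, was at 121.1 and 130.2 TPM. Ptpn11, which encodes SHP-2, was at 27.4 and 23.8 TPM. SHP-1 and PTP1B transcripts were thus the leading ones of this role. Ptpn2, which encodes the nuclear phosphatase TC-PTP, was at 11.0 and 17.0 TPM, the widest gap here at 1.54-fold. Pias1, which binds STAT dimers, was at 19.8 and 25.6 TPM, and Pias3, an inhibitor of STAT3, at 10.5 and 9.44 TPM. Ptpn6, Pias1 and Ptpn2 were called higher in replicate 2, Ptpn1 and Ptpn11 lower, and Pias3 had no call. Over all genes tested 32.2% were called higher and 31.3% lower. Among genes with a call, the TPM and the TMM-scaled counts differed in direction for Ifnar1, Stat6, Ptpn1 and Socs6.

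Of the 36 pathway genes with a mean of 5 TPM or more, 10 had a transcript besides the leading one at 20% or more of the gene's TPM in both libraries. These were Ifnar2, Il6ra, Jak2, Jak3, Stat2, Stat5b, Socs6, Pias1, Ptpn1 and Ptpn11. For Jak2, Jak3, Stat5b and Socs6 the transcripts encode the same protein and differ outside the coding part. In Stat2 the transcript Stat2-206, annotated as a retained intron, took 28.8% and 29.9% and the second quantification gave 29.2% and 28.8%. In Ptpn1 the non-coding Ptpn1-207 took 29.6% and 35.3%. Pias1-202, which shares its first 554 codons with the leading Pias1-201 and ends after 577 instead of 651, took 22.4% and 23.5%. Ptpn11-201, with 4 codons more than the leading Ptpn11-202, took 34.2% and 23.6%. The leading transcript was the same by both quantifications for 35 of the 41 genes, the others being Il4ra, Il6ra, Il6st, Jak2, Jak3 and Socs6. For Il4ra the first quantification gave Il4ra-205, annotated for nonsense-mediated decay, 29.5% and 19.5%, and the second gave it 69.5% and 62.2%. The transcript level of full-length Il4ra is therefore uncertain.

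**Figure D3:**
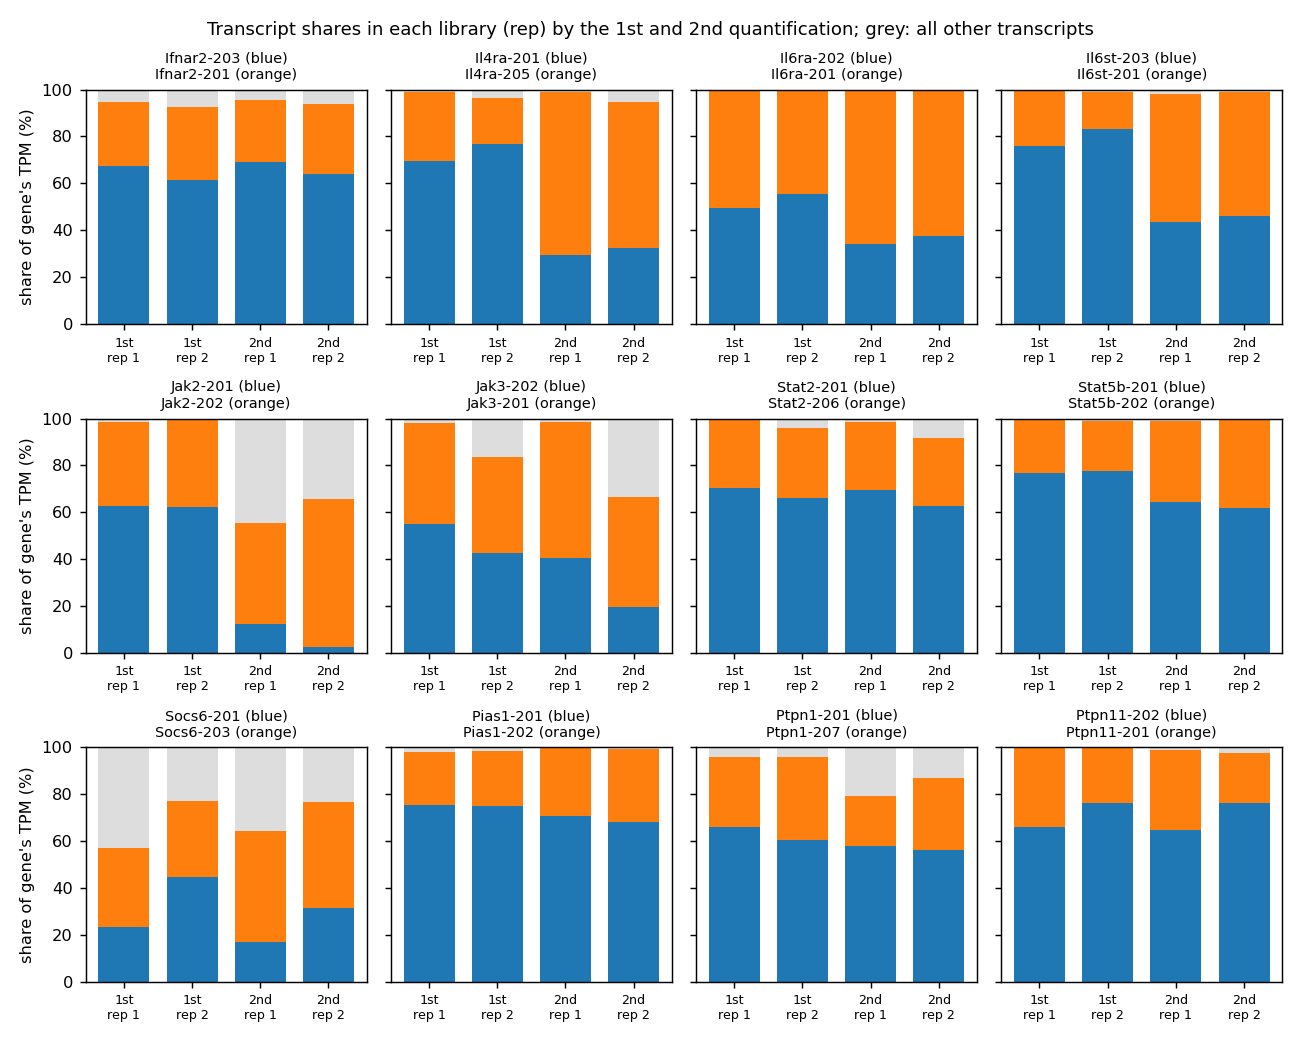
Share of a gene's TPM, in percent, taken by the leading transcript (blue), a second transcript (orange) and all others (grey) in replicates 1 and 2 by the first and the second quantification. The Ifnar2 panel is nearly level across its 4 bars, with Ifnar2-203 between 61.5% and 69.1%, while the Il4ra panel changes with the quantification.

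Other genes of the pathway, taken from lists outside the 41, set these levels in context. Of 29 further receptor chains that use Janus kinases, 11 reached 1 TPM in each library. Among the 11 with a mean of 1 TPM or more, 1 was more than 2-fold higher and 1 lower in replicate 2. Over all genes with such a mean, 8.16% were that far apart in either direction. The highest were Csf2rb at 207.0 and 212.0 TPM and Csf2rb2 at 165.1 and 153.6 TPM, near-identical beta chains of the GM-CSF family whose reads cannot be assigned with certainty, and Crlf2 at 57.7 and 46.1 TPM. The binomial test called 3 of the 13 receptor chains tested higher and 5 lower, against 32.2% and 31.3% of all genes tested. Of 25 further ligands, 3 reached 1 TPM in each library. These were Osm, which encodes oncostatin M, at 94.4 and 78.1 TPM, Ebi3 at 49.3 and 70.5 TPM, and Il12b at 1.03 and 5.0 TPM. Among the 8 further ligands with a mean of 1 TPM or more, 5 were more than 2-fold higher in replicate 2 and none lower, against 5.99% higher over all genes. Of these, Il6, Csf2, Il27 and Clcf1 were at 0.46, 0.07, 0.79 and 0.16 TPM in replicate 1, from 10, 1, 15 and 8 counts. They passed the filter on mean TPM only through replicate 2. The filter thus partly set the direction, and no conclusion is drawn from this count. The test called 4 of the 6 ligands tested higher and 1 lower, against 32.2% and 31.3% of all genes tested.

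Of 19 further regulators of the pathway, 18 reached 1 TPM in each library. The leading ones were Grb2, an adaptor, at 590.4 and 473.9 TPM, Ptprc, which encodes CD45, at 122.4 and 163.4 TPM, and Irf9, the partner of STAT2, at 47.3 and 51.5 TPM. The test called 11 of the 18 tested higher and 3 lower, against 32.2% and 31.3% of all genes tested. Only 1 was more than 2-fold higher, against 5.99% over all genes with a mean of 1 TPM or more. Of 19 genes known to respond to STATs among other factors, 17 reached 1 TPM in each library. The highest were Fos at 1211 and 822 TPM, Junb at 532 and 748 TPM and Cdkn1a at 272 and 667 TPM. In this list 7 genes were more than 2-fold higher in replicate 2 and 1 lower, against 5.99% higher over all genes with a mean of 1 TPM or more. Of the 17 tested, 13 were called higher and 3 lower, against 32.2% and 31.3% of all genes tested. The median log2 ratio of TPM was 0.51 for the genes of this list against 0.10 for all genes with a mean of 1 TPM or more.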

How the data were processed

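Polyadenylated RNA was sequenced in 2 libraries of 1 group. Per the labels each library started from 1 µg of RNA. Per the file headers, the authors' deposited gene and transcript tables give expected counts, which are estimated reads and not normalized, and TPM. A further deposited transcript table gives estimated counts and TPM from a second quantification, summed here per gene as an alternative. Assembly and annotation are mm10 and M21 per the labels, while the sources used here do not name the quantification tools. All 55536 gene identifiers were found in the M21 annotation, and 55450 also in the second quantification.

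The 41 genes, the lists beside them and the tests were chosen with earlier results of these data known. All 41 genes are named, and from each further pathway list the 3 of highest mean TPM. Il2rb, Il6, Csf2, Il27 and Clcf1 were named in addition, after their values were seen. Detection meant 1 TPM or more in both libraries, and ratios were described for genes with a mean of 1 TPM or more. Counts were rounded and scaled by TMM factors of edgeR 4.0.16 in R 4.3.3. Genes passing filterByExpr entered an exact two-sided binomial test (scipy 1.17.1), adjusted by Benjamini-Hochberg at 0.05. It was tested on simulated counts that held counting noise only. That check does not cover the further variation between these libraries. With 1 group, no test between conditions exists, and p-values reflect counting noise between these 2 libraries only. Intervals are 95% exact (Clopper-Pearson) and, without molecular identifiers, cover counting error only. A count of 0 allows up to 3 counts, which is 0.0794 CPM in replicate 1 and 0.0578 CPM in replicate 2. A ribosomal RNA gene took 10.9% and 5.05% of the counts, and leaving it out would change every log2 TPM ratio by -0.089. Alternatives were other detection limits, scalings, pseudocounts and filters, and the second quantification.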

Additional observations from a re-analysis of the deposited data

How the results depend on the processing

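The number of genes detected was 37, and 38, 35 and 36 with limits of 0.5 TPM, 5 TPM and in the second quantification. By a single library it was between 37 and 39. The number more than 2-fold apart was 4, also on TMM-scaled CPM and with 1 added to each TPM. It was 6 in the second quantification, where Il15 and Il13ra1 joined, and 5 with no filter on low values, where Socs2 joined. Calls of higher and lower in replicate 2 (26 and 10) were the same in number with DESeq2-type size factors and without the low-count filter, and 24 and 10 in the second quantification. Scaling by total counts gave 30 higher and 5 lower. Among calls over all genes it moved the share called higher from 50.6% to 67.9%, and among the pathway genes from 72.2% to 85.7%, with a shift of 0.12 in the median log2 ratio. Under it the direction turned for Ifnar1 (log2 ratio 0.054), Stat6 (0.064) and Ptpn1 (0.020), by the construction of the scaling. The lower calls of Jak1 and Jak3 were lost (log2 ratios -0.029 and -0.135), and Ifngr1, Il4ra and Stat5b were called higher. The calls of Socs1 and Socs5 were lost in the second quantification, and that of Socs1 without the low-count filter. The cause was not tested. The number of genes with a second transcript was 10 in each quantification, 8 of them shared. Mean TPM moved by more than 1 SD for 13 of the 41 genes in the second quantification. Ratios between libraries cannot be formed with a replicate left out. No paired analysis was possible because the series holds a single group. Depth limits Ifnb1, Socs1 and Socs2 most, with 1, 20 and 14 counts in replicate 1.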
